A study of Chlorocebus sabaeus with 18 samples.

Results

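The 10 genes described here are targets or regulators of the transcription factor NF-kB: the chemokines CXCL8, CXCL1, CXCL2 and CCL2, the cytokines IL6 and IL1A, the inhibitors TNFAIP3 and NFKBIA, the subunit RELB, and LCN2. They were taken by Ensembl ID from the 19997 genes, or groups of overlapping genes, whose exon bins were deposited with counts. All 10 had a row of their own, and none lay in a group of overlapping genes. The list was drawn up with gene levels of these libraries already known. CXCL8 and LCN2 were chosen by their normalised gene counts, CXCL8 after a difference between TRA_OE and siTRA and LCN2 after a difference between CGG_siTRA and siTRA, so the gene levels of both are given as a description, with no test. Which values, if any, chose the other 8 is not recorded, so their test results describe them and are no independent support for the list.

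RNA came from COS-7, a fibroblast-like kidney line of the African green monkey that expresses the SV40 large T antigen. All libraries used here are of this 1 line, and 5 groups of 3 have counts: control cells whose treatment, if any, the labels do not name (CTL), a repeat group given the 5′ UTR of FMR1 carrying 60 CGG triplets by transfection (CGG), a group in which TRA2A, a splicing factor, was overexpressed (TRA_OE, titled GFP_TRA in the labels), a TRA2A knockdown group (siTRA), and a group that received repeat and knockdown together (CGG_siTRA). A sixth group, with the repeat and overexpression, appears only in the splicing event tables. The titles of 2 CGG_siTRA samples name different rounds, and nothing ties their count columns to these. No group is labelled as an empty vector or a control siRNA, so an effect of a named treatment and an effect of transfection cannot be told apart in a comparison with CTL. Whether the replicates of a group were grown separately is not in the labels, and p-values then measure only the spread between these libraries, which are lettered a, b and c within a group.

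NF-kB is a dimer of Rel family proteins that inhibitors such as IkB alpha, the product of NFKBIA, hold in the cytoplasm. Signals from cytokine receptors, pattern receptors or cell stress lead to the breakdown of IkB alpha, and the freed dimer enters the nucleus and switches on genes for chemokines, cytokines and its own inhibitors. IkB alpha and the ubiquitin-editing enzyme A20, the product of TNFAIP3, then damp the signal, so both are targets and brakes of the same pathway. In fibroblasts and kidney cells the best known outputs are secreted proteins that call in leukocytes.

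Summed over exon bins, the libraries held 121142115 to 203957869 counts. Library b of siTRA was the shallowest and had the lowest mean correlation with the other libraries across genes, 0.978 against 0.986 to 0.990 for the rest. The gene taken as TRA2A (ENSG00000164548.10) was picked by this ID, which no reference used here pairs with a symbol. Its normalised count was 16912.5 to 17234 in CTL and 15675 to 17032 in CGG, which overlapped. The count was 187106 to 221793 in TRA_OE, 3117 to 4916 in siTRA and 4019.7 to 4408 in CGG_siTRA. Without a paired symbol, these levels are no independent check of the labels. Genes were tested with edgeR's quasi-likelihood test over 14969 genes, and a gene is called at a Benjamini-Hochberg adjusted p under 0.05. With the authors' scaling factors in place of TMM scaling, the median log2 change of all genes in CGG_siTRA vs CTL moved from 0.01 to -0.11. The split of all calls there went from 2221 higher and 2400 lower to 1161 and 4041.

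All 10 genes passed the filter on low counts, CXCL1 through only 5 libraries. Levels are given as normalised counts, which are reads summed over a gene's bins and divided by the authors' scaling factor, and they are compared only within a gene. On the human assembly GRCh38, to which the reads were aligned, 3 of the chemokine genes lie close together on chromosome 4: CXCL8 (ENSG00000169429.10, 73740506 to 73743716, plus strand), CXCL1 (ENSG00000163739.4, 73869404 to 73871242, plus strand) and CXCL2 (ENSG00000081041.8, 74097035 to 74099195, minus strand). CCL2 (ENSG00000108691.9) lies on chromosome 17, 34255218 to 34257203. These spans run from the first to the last counted exon bin.

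**Figure D1:**
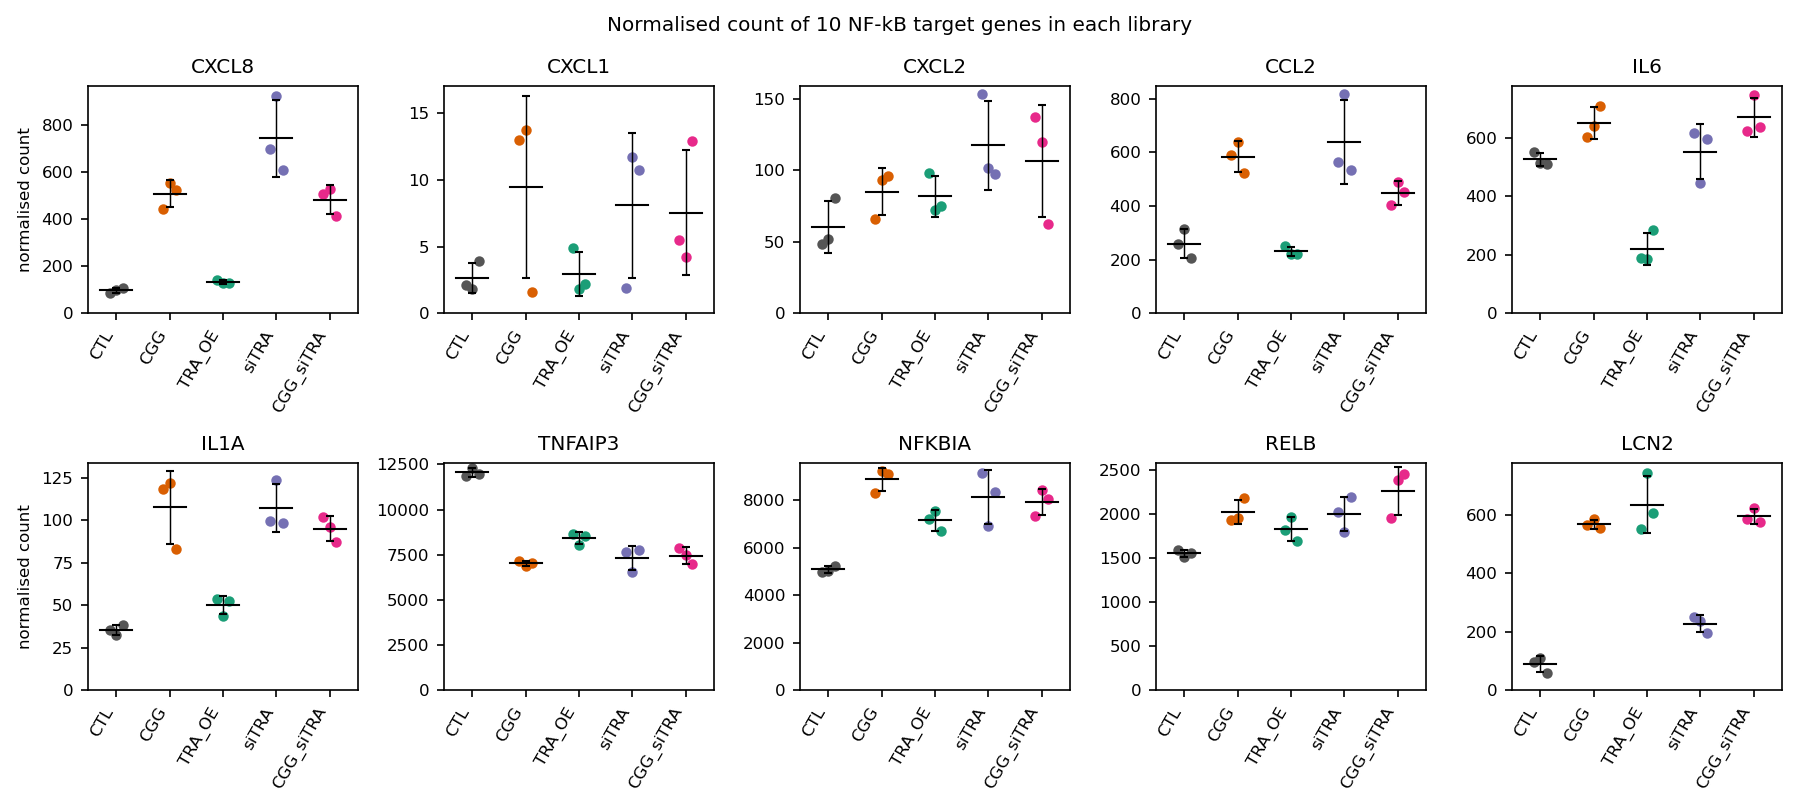
Normalised count (y axis, linear, from 0) of each of the 10 genes in the 15 libraries, by group. Points are libraries, horizontal lines are means and bars are SD over 3 libraries; CXCL8, CCL2, IL6 and IL1A have their 3 TRA_OE points below every point of CGG, siTRA and CGG_siTRA, and TNFAIP3 has its 3 CTL points above all others.

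CXCL8 encodes interleukin 8, which attracts neutrophils. Its normalised count was 88.0, 99.5 and 106 in CTL libraries a, b and c. TRA_OE lay close above these, at 142, 129 and 131. The other transfected groups lay far higher, with 444, 555 and 525 in CGG, 505, 529 and 411 in CGG_siTRA, and 699, 923 and 607 in siTRA. Relative to the CTL mean these groups stood at 1.37 times in TRA_OE, 5.19 times in CGG, 4.92 times in CGG_siTRA and 7.58 times in siTRA. The order of the means was siTRA, CGG, CGG_siTRA, TRA_OE, CTL, and of the neighbours in it only CGG and CGG_siTRA overlapped. Between TRA_OE and siTRA the log2 difference was -2.54 (SE 0.16), and it was -2.39 without siTRA library b, the highest of the 15.

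CCL2, a chemokine for monocytes, had much the same order. It lay at 258, 316 and 208 in CTL and at 252, 220.3 and 222 in TRA_OE, which overlapped. In CGG the 3 libraries read 589.7, 639.6 and 524, in siTRA 564, 817 and 533, and in CGG_siTRA 403, 491 and 454. Each library of these 3 groups was above each library of CTL and TRA_OE. CCL2 rose in CGG vs CTL (log2 change 1.19, SE 0.16, adjusted p = 3.17e-05, edgeR), in siTRA vs CTL (1.34, SE 0.16, adjusted p = 4.42e-06, edgeR) and in CGG_siTRA vs CTL (0.91, SE 0.16, adjusted p = 0.000324, edgeR). In TRA_OE vs CTL the value was -0.18 (SE 0.17, adjusted p = 0.443, edgeR). The siTRA value was 1.16 without library b, which was also the highest here.

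CXCL2 and CXCL1 are further neutrophil chemokines, and both were scarce. CXCL2 read 48.3, 52.1 and 81.0 in CTL, 66.3, 93.0 and 95.9 in CGG, 98.5, 72.2 and 75.2 in TRA_OE, 153, 101.5 and 97.6 in siTRA, and 137, 120.1 and 62.6 in CGG_siTRA. Of the transfected groups, siTRA was the one whose libraries were all above CTL. The gene rose in siTRA vs CTL (log2 change 1.02, SE 0.31, adjusted p = 0.015, edgeR) and in CGG_siTRA vs CTL (0.94, SE 0.31, adjusted p = 0.0298, edgeR). Both calls are fragile: the adjusted p (edgeR) was 0.0859 in siTRA vs CTL without siTRA library a, 0.0665 and 0.0619 without CTL library a or b, and 0.0642 when the highest bin stood for the gene. In CGG_siTRA vs CTL it was 0.131 and 0.099 without CGG_siTRA library a or b, 0.114 and 0.107 without CTL library a or b (edgeR), and 0.0525 by limma with a pseudocount of 1. CXCL1 had 2 to 14 counts per library. In CTL these were 2, 2 and 4, and in CGG 11, 12 and 2, so at this depth no change was detectable (adjusted p = 0.154 for CGG vs CTL, edgeR), and no fold is given for it.

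IL6, a cytokine of the acute phase response (ENSG00000136244.11, chromosome 7, 22727147 to 22732002, plus strand), was lowest in TRA_OE. It read 553, 514 and 511 in CTL and only 190.2, 186 and 284 in TRA_OE. CGG lay at 604, 639.6 and 709, CGG_siTRA at 624, 748 and 637, and siTRA at 617, 446 and 596. TRA_OE stood below every other library, while siTRA overlapped CTL. The gene fell in TRA_OE vs CTL (log2 change -1.28, SE 0.16, adjusted p = 1.59e-05, edgeR), to 0.418 times the CTL mean. It rose in CGG_siTRA vs CTL (0.47, SE 0.16, adjusted p = 0.0265, edgeR), a call that was lost with the authors' scaling factors (0.35, adjusted p = 0.0818, edgeR), by limma (0.34, adjusted p = 0.101), and without CTL library b or c or CGG_siTRA library b (adjusted p = 0.0833, 0.0782 and 0.123, edgeR). Values were 0.33 in CGG vs CTL (adjusted p = 0.132, edgeR; 0.0107 when only these groups were fitted) and 0.14 in siTRA vs CTL (adjusted p = 0.512, edgeR).

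The lower IL6 level in TRA_OE ran along the whole gene. Of its 12 bins with a mean of 10 or more over the libraries, 12 were below CTL in TRA_OE, at 0.21 to 0.53 times the CTL mean. Bin E012, which holds the most reads, went from 79.2 in CTL to 35.3 in TRA_OE, and bin E018, near the 3′ end, from 71.4 to 35.8. Toward the 5′ end, bin E009 went from 44.4 to 13.9. Neighbouring bins can hold the same reads and are not independent.

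**Figure D2:**
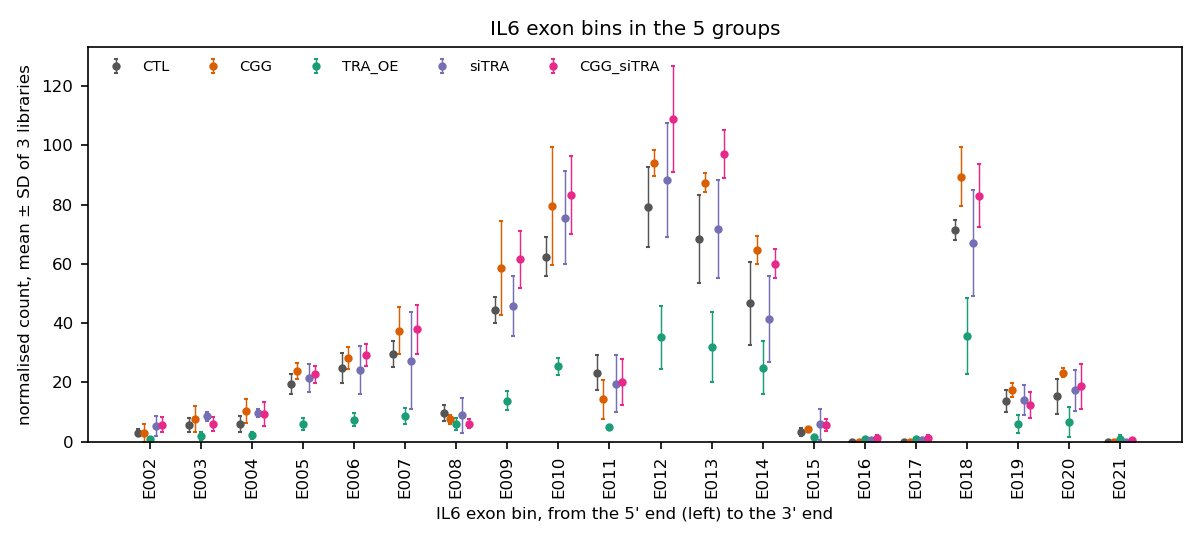
Normalised count (y axis, linear) of each counted IL6 exon bin in order from the 5′ end, as mean ± SD over the 3 libraries of each of 5 groups. TRA_OE is the lowest of the groups in each of the 12 bins with a mean of 10 or more, for example at 35.3 against 79.2 in CTL in bin E012.

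IL1A encodes interleukin 1 alpha, an alarm cytokine that can itself activate NF-kB through its receptor (ENSG00000115008.5, chromosome 2, 112773915 to 112784590, minus strand). It read 35.4, 32.5 and 38.1 in CTL, 53.6, 43.9 and 52.7 in TRA_OE, 118, 122 and 82.9 in CGG, 99.8, 124 and 98.6 in siTRA, and 102, 95.9 and 87.5 in CGG_siTRA. TRA_OE lay above CTL and below the other transfected groups without overlap. IL1A rose in CGG vs CTL (log2 change 1.62, SE 0.23, adjusted p = 5.25e-05, edgeR), in siTRA vs CTL (1.66, SE 0.23, adjusted p = 2.31e-05, edgeR) and in CGG_siTRA vs CTL (1.55, SE 0.23, adjusted p = 5.94e-05, edgeR). TRA_OE vs CTL gave 0.49 (SE 0.24, adjusted p = 0.139, edgeR).

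The inhibitors moved in opposite directions. TNFAIP3, which encodes A20 (ENSG00000118503.14, chromosome 6, 137867188 to 137883312, plus strand), was highest in CTL, at 11875 to 12316. It read 7159, 6869 and 7013 in CGG, 8652, 8040.2 and 8529 in TRA_OE, 7633, 6549 and 7764 in siTRA, and 7891, 7462 and 6987 in CGG_siTRA. No transfected library reached a CTL library. TNFAIP3 fell in CGG vs CTL (log2 change -0.76, SE 0.08, adjusted p = 1.07e-06, edgeR), and in TRA_OE, siTRA and CGG_siTRA vs CTL by 0.53, 0.66 and 0.57 on the log2 scale (adjusted p at most 5.07e-05, edgeR). All 29 of its bins with a mean of 10 or more were below CTL in each of these 4 groups.

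NFKBIA, which encodes IkB alpha (ENSG00000100906.10, chromosome 14, 35401511 to 35404749, minus strand), was lowest in CTL. It read 4989, 5016 and 5234 in CTL, 8314, 9217 and 9086 in CGG, 7221, 7530.1 and 6683 in TRA_OE, 9129, 6911 and 8345 in siTRA, and 7321, 8423 and 8034 in CGG_siTRA. Each transfected library lay above each CTL library. NFKBIA rose by 0.83 (SE 0.10) on the log2 scale in CGG, 0.48 (SE 0.09) in TRA_OE, 0.74 (SE 0.10) in siTRA and 0.76 (SE 0.10) in CGG_siTRA, each against CTL (adjusted p at most 0.000984, edgeR).

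RELB encodes a Rel family subunit that pairs with p52 or p50 in the slower, non-canonical branch of the pathway (ENSG00000104856.13, chromosome 19, 45001430 to 45038198, plus strand). Its levels were 1593, 1511 and 1557 in CTL, 1938, 1953 and 2181 in CGG, 1826, 1968 and 1696 in TRA_OE, 2025, 1799.7 and 2191 in siTRA, and 1957, 2386 and 2458 in CGG_siTRA. All transfected libraries lay above the CTL libraries. RELB rose in CGG vs CTL (log2 change 0.41, SE 0.10, adjusted p = 0.00581, edgeR), siTRA vs CTL (0.43, SE 0.10, adjusted p = 0.00213, edgeR) and CGG_siTRA vs CTL (0.67, SE 0.10, adjusted p = 5.1e-05, edgeR). In TRA_OE vs CTL the value was 0.22 (SE 0.10, adjusted p = 0.102, edgeR; 0.048 when only these groups were fitted).

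LCN2 encodes lipocalin 2, a secreted protein that binds bacterial siderophores and is known as a marker of kidney injury (ENSG00000148346.11, chromosome 9, 128149441 to 128153455, plus strand). It read 96.6, 109.7 and 57.6 in CTL, 564, 586 and 555 in CGG, 553, 745 and 608 in TRA_OE, 249.5, 237 and 195 in siTRA, and 586, 625 and 575 in CGG_siTRA. CTL was lowest, siTRA lay between, and the other 3 groups overlapped at the top. The means relative to CTL were 6.46 times in CGG, 7.22 times in TRA_OE, 2.58 times in siTRA and 6.77 times in CGG_siTRA. Its order across groups differed from that of CXCL8, which was highest in siTRA and second lowest in TRA_OE. Both genes were chosen after differences that involve siTRA, so this contrast is partly set by the choice and is a description only. CGG_siTRA vs siTRA had a log2 difference of 1.45 (SE 0.17), and 1.25 when the highest bin stood for the gene.

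Counted over the 8 genes other than CXCL8 and LCN2, 3 to 7 were called against CTL, and differences between these numbers were not tested. In CGG vs CTL 5 of the 8 were called, with CCL2, IL1A, NFKBIA and RELB higher and TNFAIP3 lower, where 24.2% of all genes tested were called, 11.9% higher and 12.3% lower. In siTRA vs CTL 6 were called, these genes plus CXCL2, where 38% of all genes were called, 18.1% higher and 19.9% lower. In CGG_siTRA vs CTL 7 were called, the 6 plus IL6, but only 6 with the authors' scaling factors, 5 by limma with a pseudocount of 1 and 5 without CTL library b or CGG_siTRA library b, where 30.9% of all genes were called, 14.8% higher and 16% lower. In TRA_OE vs CTL 3 were called, NFKBIA as higher and TNFAIP3 and IL6 as lower, where 28.9% of all genes were called, 14.5% higher and 14.4% lower. That share is near the background, and it is no result about the list. Without CXCL1, whose counts were too few for a fold, the median log2 change of the other 7 genes was 0.52 in CGG, 0.74 in siTRA, 0.77 in CGG_siTRA and 0.22 in TRA_OE, where the median over all genes lay between 0.00 and 0.01 in size. These 4 comparisons share the CTL libraries.

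**Figure D3:**
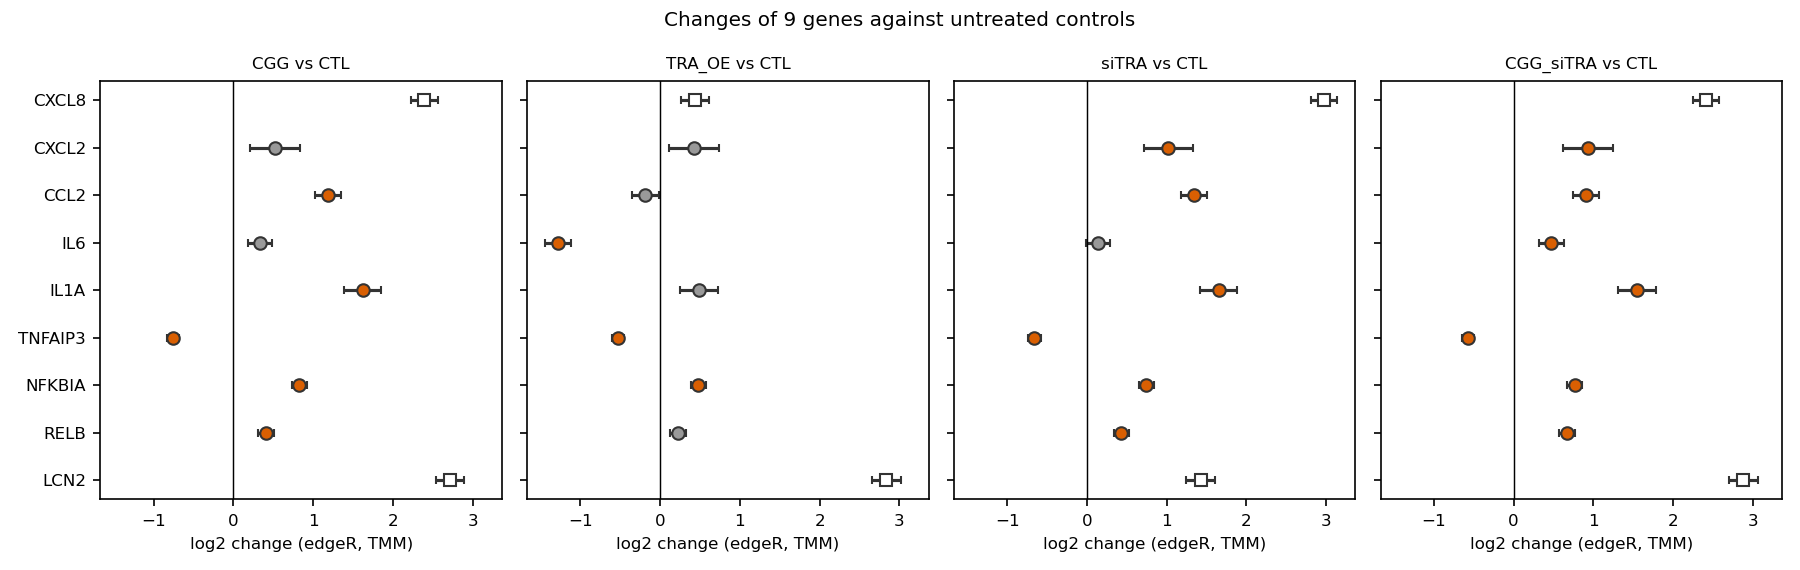
Log2 change against CTL (x axis, edgeR with TMM scaling) of 9 genes, without CXCL1, in CGG, TRA_OE, siTRA and CGG_siTRA; bars are the SE. Filled orange circles were called at an adjusted p under 0.05 and grey circles were not; open squares are CXCL8 and LCN2, shown with no test. TNFAIP3 lies left of 0 and NFKBIA right of 0 in all 4 panels, while IL6 lies at -1.28 in TRA_OE alone.

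TRA_OE and siTRA were also compared directly. These groups differ in the treatment given as well as in the level of TRA2A, and neither has a matched control. An effect of that level and an effect of the treatment itself cannot be told apart here. In TRA_OE vs siTRA 4 of the 8 genes were called, all lower in TRA_OE, where 31.6% of all genes were called, 16.8% higher and 14.7% lower. CCL2 (log2 change -1.53, SE 0.16, adjusted p = 2.24e-06, edgeR), IL6 (-1.42, SE 0.16, adjusted p = 4.56e-06, edgeR) and IL1A (-1.17, SE 0.23, adjusted p = 0.000761, edgeR) were lower by a wide margin. NFKBIA was slightly lower (-0.27, SE 0.09, adjusted p = 0.039, edgeR), and that call was lost with the authors' scaling factors (-0.19, adjusted p = 0.105, edgeR), by limma (adjusted p = 0.123), with the highest bin (adjusted p = 0.114, edgeR), in the fit of these groups alone (adjusted p = 0.12, edgeR) and without any of TRA_OE library a or c or siTRA library a or c (adjusted p from 0.0608 to 0.155, edgeR). With the authors' factors TNFAIP3 was called instead, as higher in TRA_OE (0.20, adjusted p = 0.0304, edgeR), so the calls split into 1 higher and 3 lower. The split was the same by limma at pseudocounts of 1 and 10 (TNFAIP3 adjusted p = 0.0273 and 0.0264). RELB gave -0.21 (adjusted p = 0.117, edgeR), and passed without siTRA library b (-0.31, adjusted p = 0.0186, edgeR) and with its highest bin (-0.42, adjusted p = 0.0104, edgeR). CXCL2 gave -0.60 (SE 0.31, adjusted p = 0.147, edgeR). LCN2 differed the other way, by a log2 value of 1.41 (SE 0.16).

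TRA_OE was also set against CGG, the group transfected with the repeat, which differs from it in more than the level of TRA2A. Here 4 of 8 genes were called, all lower in TRA_OE, against 8.43% of all genes tested, 3.19% called as higher and 5.24% as lower. IL6 (log2 change -1.61, SE 0.16, adjusted p = 7e-06, edgeR), CCL2 (-1.37, SE 0.16, adjusted p = 3.56e-05, edgeR) and IL1A (-1.13, SE 0.23, adjusted p = 0.00442, edgeR) led again. NFKBIA (-0.35, SE 0.09, adjusted p = 0.0276, edgeR) lost its call without CGG library b or c or TRA_OE library a or c (adjusted p from 0.0641 to 0.108, edgeR). TNFAIP3 gave 0.23 (SE 0.08, adjusted p = 0.0815, edgeR) and was called as higher in several other settings. These were the authors' scaling factors (0.26, adjusted p = 0.0218, edgeR), DESeq2 (adjusted p = 0.0483) and the fit of these groups alone (adjusted p = 0.0166, edgeR). It was also called by limma at pseudocounts of 1 and 10 (adjusted p = 0.0218 and 0.0211). In each of these settings 5 of the 8 genes were called, 1 higher and 4 lower. CXCL8 differed by -1.96 (SE 0.16) and LCN2 by 0.12 (SE 0.16). Between TRA_OE and CGG_siTRA no test was planned, and the ratio of means was 0.279 for CXCL8, 0.515 for CCL2, 0.329 for IL6 and 0.527 for IL1A, without overlap of the libraries.

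The group with both treatments was compared with each treatment alone. In CGG_siTRA vs CGG 0 of 8 were called by edgeR, limma and DESeq2, where edgeR called 10.2% of all genes, 4.14% higher and 6.03% lower. At an unadjusted p under 0.05 there were 2, RELB and TNFAIP3. The 3 largest differences were 0.42 for CXCL2 (SE 0.31; 0.19 and 0.71 without CGG_siTRA library a or c, and 0.28 without CGG library a), -0.28 for CCL2 (SE 0.16) and 0.26 for RELB (SE 0.10, adjusted p = 0.11, edgeR), and RELB was called without CGG_siTRA library a (0.35, adjusted p = 0.0319, edgeR) or with its highest bin (0.44, adjusted p = 0.0183, edgeR). TNFAIP3 gave 0.19 (SE 0.08, adjusted p = 0.144, edgeR) and was called without CGG_siTRA library c (0.25, adjusted p = 0.0485, edgeR). In CGG_siTRA vs siTRA 0 of 8 were called by edgeR, limma and DESeq2, where edgeR called 0.0134% of all genes, and 3 had an unadjusted p under 0.05. With so few calls over all genes in CGG_siTRA vs siTRA, its count of 0 is no result about the list. In CGG_siTRA vs CGG a count of 0 among 8 genes is near the share of 10.2% over all genes, and is no result about the list either. In CGG_siTRA vs siTRA the largest difference was -0.44 for CCL2 (SE 0.16, adjusted p = 0.17, edgeR), and -0.25 without siTRA library b. Next came 0.33 for IL6 (SE 0.16, adjusted p = 0.256, edgeR), and 0.18 without that library. RELB gave 0.24 (SE 0.10, adjusted p = 0.224, edgeR), and 0.14 without the same library. CXCL8 was lower in CGG_siTRA than in siTRA, by -0.56 (SE 0.15), and -0.40 without siTRA library b. LCN2 was higher, by the 1.45 given above.

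**Figure D4:**
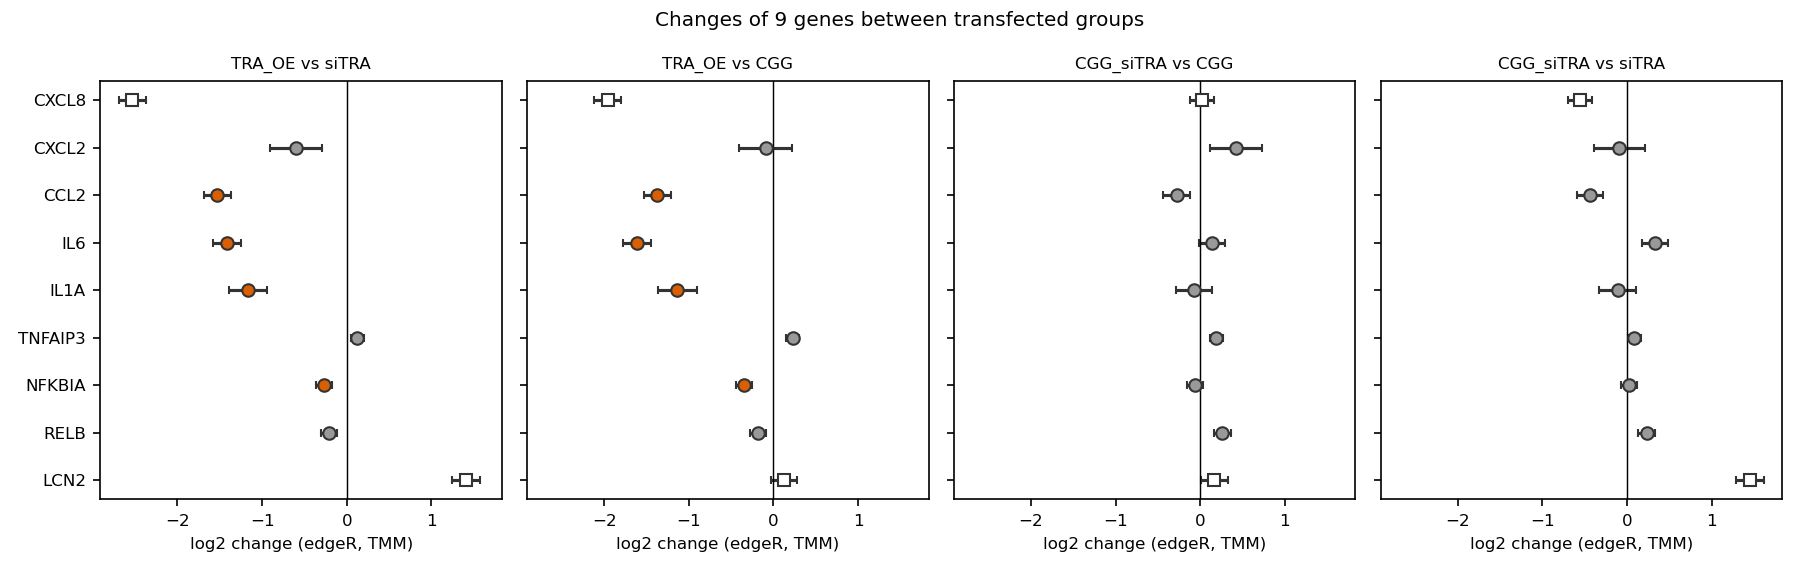
Log2 change (x axis, edgeR with TMM scaling) of 9 genes, without CXCL1, between transfected groups; bars are the SE, orange circles were called, grey circles were not, and open squares are CXCL8 and LCN2, shown with no test. In the 2 panels with TRA_OE, CCL2, IL6 and IL1A lie between -1.61 and -1.13, and in the panels for CGG_siTRA no circle is orange.

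The effect of the knockdown differed between cells without and with the repeat for 4 of the 8 genes by the interaction test, 1 with a higher and 3 with a lower value, where 19.4% of all genes were called, 10.2% higher and 9.12% lower. In each of these genes the CTL libraries lay apart from those of CGG, siTRA and CGG_siTRA. CCL2 went from a mean of 260.5 ± 54.2 in CTL to 638 ± 156 in siTRA (SD, n = 3). With the repeat, CGG had 584.5 ± 57.8 and CGG_siTRA 449 ± 44.4 (SD, n = 3), a difference that was not called (log2 -0.28, adjusted p = 0.325, edgeR). TNFAIP3 went from 12059 ± 230 to 7315 ± 667 without the repeat, and from 7014 ± 145 to 7447 ± 452 with it (SD, n = 3 each). The other called genes were IL1A and NFKBIA. Because the repeat's own group already lay apart from CTL, the test does not tell a dependence on the repeat from a change that any transfection gives.

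Relative use of exon bins within a gene is a readout other than the gene levels by which CXCL8 and LCN2 were chosen. Whether it played a part in the choice of the other 8 genes is not recorded. The authors' deposited DEXSeq tables report an adjusted p for relative bin use. In CGG vs CTL 4 of 122 tested bins of these genes passed 0.05, against 2% of all bins. The corresponding counts were 4 of 115 in CGG_siTRA vs CTL (3.87% of all bins), 5 of 122 in CTL vs siTRA (1.83%), 0 of 124 in CTL vs TRA_OE (1.32%), 2 of 116 in CGG_siTRA vs CGG (3.34%) and 1 of 128 in TRA_OE vs siTRA (0.595%). The shares lay above the background in CTL vs siTRA and CGG vs CTL, and below it in CTL vs TRA_OE and CGG_siTRA vs CGG. They rest on 0 to 5 bins, and bins of a gene share reads, so no result about the list is drawn from them.

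Of the bins that passed, 4 belonged to NFKBIA: E010 and a run of 3 near its 5′ end. Bins E023, E024 and E025 cover 35404651 to 35404742, on the minus strand, so that high positions are 5′. In the authors' deposited table for CGG vs CTL, the log2 change in relative use was 0.89 for E023, 1.78 for E024 and 2.09 for E025 (the authors' adjusted p = 0.042, 0.00116 and 2.62e-05). For CGG_siTRA vs CTL the authors' deposited table gives 0.82, 1.80 and 2.13 (their adjusted p = 0.00315, 9.28e-07 and 5e-07). In siTRA vs CTL E024 and E025 passed in the authors' deposited table (1.39 and 1.56, their adjusted p = 0.0271 and 0.0494). Together the 3 bins held 0.75%, 0.89% and 0.71% of the gene's summed reads in CTL libraries a, b and c. They held 1.34%, 2.16% and 2.25% in CGG, 1.63%, 1.89% and 2.27% in CGG_siTRA, and 1.42%, 1.04% and 1.91% in siTRA. TRA_OE was split, at 2.19% and 3.06% in libraries a and b but 0.59% in library c, and no bin passed there in the authors' deposited table. Each of the bins is short, at 16 to 50 bases, and the reads behind these shares were 35 to 48 counts per CTL library and 35 to 252 in the others. The 3′ bins E001 to E005 held 10.6% ± 0.66 in CTL and 11.2% ± 0.83 in CGG (SD, n = 3).

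**Figure D5:**
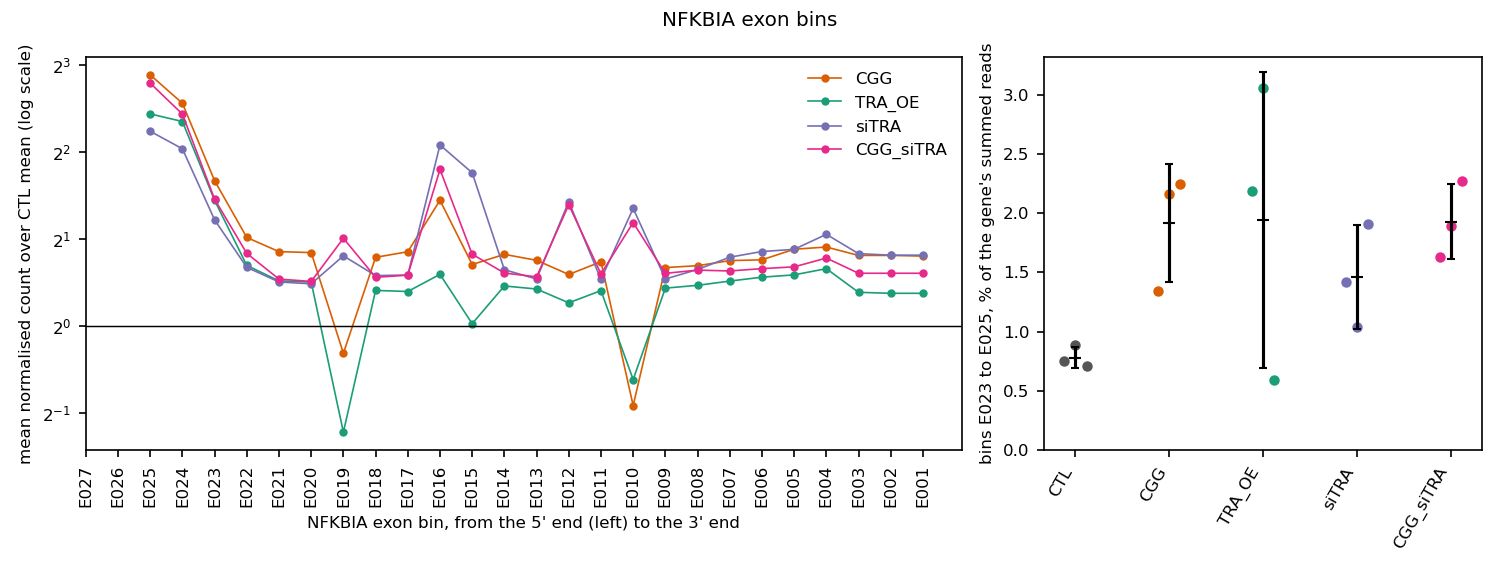
Left, mean normalised count of each NFKBIA exon bin in a transfected group over the CTL mean (y axis, log scale), from the 5′ end on the left, for bins with a CTL mean of 5 or more. Right, percent of the gene's summed reads in bins E023 to E025 in each library, with mean and SD; the CTL libraries lie at 0.71% to 0.89% and TRA_OE library c, at 0.59%, lies below them.

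A further NFKBIA bin, E010 (35402664 to 35402770), lies between E009 and E011, which had mean normalised counts of 366 and 477 in CTL, but itself held few reads. It took 0.27% ± 0.02 of the gene's reads in siTRA and 0.25% ± 0.12 in CGG_siTRA, against 0.05% ± 0.02 in CGG, 0.08% ± 0.06 in TRA_OE and 0.17% ± 0.05 in CTL (SD, n = 3). The authors' deposited tables give log2 changes in its relative use of -1.76 for CGG vs CTL, 2.29 for CGG_siTRA vs CGG and -1.77 for TRA_OE vs siTRA (their adjusted p = 0.0281, 0.0174 and 0.0136). Only 3 to 28 counts per library lay in this bin.

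In CXCL8 and CCL2, inner bins with few reads took a larger share in siTRA than in CTL. CXCL8 bins E005 and E008 together held 5.80%, 6.06% and 5.79% of the gene's reads in siTRA, against 1.22%, 4.67% and 1.83% in CTL and 4.78%, 5.58% and 2.91% in CGG_siTRA. The same bins held 3.20%, 2.07% and 4.18% in CGG and 4.11%, 4.26% and 2.56% in TRA_OE. Behind these shares were only 1, 5 and 2 counts in the CTL libraries, and 43, 43 and 36 in siTRA. Bin E008 (73742033 to 73742330) had 0 counts in each CTL library, where a count of 0 allows up to 3 counts, and a mean normalised count of 17.3 in siTRA. CCL2 bins E003 and E007 held 3.51%, 4.62% and 2.75% in siTRA, against 0.83%, 2.35% and 0.94% in CTL and 1.91%, 2.79% and 0.61% in CGG_siTRA. They held 1.0%, 0.18% and 2.02% in CGG and 1.94%, 0.83% and 3.03% in TRA_OE, whose library c lay above siTRA library c. The CCL2 shares rest on 2, 8 and 2 counts in CTL and 21, 29 and 15 in siTRA. In the authors' deposited table for CTL vs siTRA, E008 of CXCL8 and E007 of CCL2 passed (their adjusted p = 0.0465 and 0.037), as did CXCL8 bin E006, which had a lower share in siTRA (their adjusted p = 0.0425). E005 of CXCL8 and E003 of CCL2 did not pass there (the authors' adjusted p = 0.845 and 0.80). The pairs of bins were joined here after their values were seen, so no test is given for the sums. RELB had 2 bins that passed, E014 in CGG_siTRA vs CGG (log2 change -0.38) and E024 in CGG_siTRA vs CTL (0.27), both from the authors' deposited tables. The authors' 5 event tables list 6311 splicing events each, and 0 of them lie in these 10 genes, so the group with the repeat and overexpression gives no value for them.

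Genes outside the list were also compared with CXCL8 and LCN2, with groups of overlapping genes left out. The gene whose log2 normalised count followed CXCL8 most closely over the 15 libraries was ENSG00000170006.11, on chromosome 4 at 152618632 to 152680165 (Pearson's r 0.956, Spearman's rho 0.768). Its mean was 536 ± 25.6 in CTL and 481.5 ± 9.0 in TRA_OE, and it stood at 1066 ± 19.5 in CGG, 909.8 ± 106 in CGG_siTRA and 1139 ± 173 in siTRA (SD, n = 3). For LCN2 it was ENSG00000175197.11 on chromosome 12, 57516588 to 57520517 (r 0.965, rho 0.854), at 1696 ± 83.7 in CTL, 4224 ± 245 in siTRA, 6259 ± 566 in TRA_OE, 6735 ± 598 in CGG_siTRA and 6761 ± 22.4 in CGG (SD, n = 3). The libraries fall into 5 groups, so these correlations describe the order of the groups and carry no test.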

How the data were processed

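Total RNA of COS-7 cells was made into libraries depleted of ribosomal RNA, per the labels' protocols. The submitters' processing notes name cutadapt 1.14, STAR 2.5.2 and GRCh38.p10, a human assembly, so reads that differ between human and monkey can be lost. The annotation and counter are not given in the sources used here. Raw counts per exon bin were deposited with 6 DEXSeq tables, which also hold the authors' p-values, adjusted p-values and log2 changes of relative bin use. The authors deposited normalised values too, a signal that is the count divided by 1 factor per library. Whole reads came back from 100% of these values, within 0.1 of a read. A read over several bins is counted in each.

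Bins were summed to 19997 genes, and 14969 whose normalised count reached 10 in 3 or more of the 15 libraries were tested with edgeR 4.0.16 (R 4.3.3; TMM, quasi-likelihood, 5 group means in 1 fit), which was tested on simulated data. DESeq2 1.42.0 and limma 3.58.1 were alternatives. Libraries were put in groups by the comparisons that list them. Members and lists were chosen with earlier results of these data known. All members are named, as are member bins that passed in the authors' tables. The nearest gene to CXCL8 and to LCN2 by Pearson's r is also named, with groups of overlapping genes left out. Names of the 10 genes came with their IDs. Of 23133 IDs, 0 were paired with a symbol in the monkey reference mChlSab1.0.hap1, so lists of other pathway genes and of cell type markers, planned by symbol, were not tested.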

Additional observations from a re-analysis of the deposited data

Results flagged for a closer look

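For 4 genes the change with the knockdown differed between cells without and with the repeat, by the interaction test (edgeR). The log2 difference, knockdown effect with the repeat minus that without, was -1.62 for CCL2 (adjusted p = 8.09e-05, edgeR), -1.73 for IL1A (adjusted p = 0.000985, edgeR), -0.81 for NFKBIA (adjusted p = 0.000395, edgeR) and 0.84 for TNFAIP3 (adjusted p = 3.28e-05, edgeR). All 4 stayed called in each alternative run and without each library in turn, with ranges without a library of -1.78 to -1.43, -1.89 to -1.63, -0.93 to -0.70 and 0.75 to 0.91. In each gene the CTL libraries lay apart from those of CGG, siTRA and CGG_siTRA, and the part of transfection in this was not tested. With no group labelled as an empty vector or a control siRNA, a dependence on the repeat and an effect of transfection cannot be told apart.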

How the results depend on the processing

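No paired analysis was possible because the count columns carry library numbers, and nothing links these to a replicate in the sample titles. For the number of the 8 genes called, 62 of 63 values under other settings and 58 of 60 without a library stayed within 1.5 times the main number. The exceptions were in CGG_siTRA vs CGG, where 0 became 1 (RELB) with the highest bin per gene, and ranged from 0 to 1 without a library (1 without CGG_siTRA library a, RELB, or c, TNFAIP3). No reported log2 change of these 8 genes changed sign. With the authors' adjusted p under 0.01, bins of these genes that passed went from 4 to 2 in CGG vs CTL, from 2 to 0 in CGG_siTRA vs CGG, from 5 to 0 in CTL vs siTRA and from 1 to 0 in TRA_OE vs siTRA.

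Over all genes, CGG_siTRA vs siTRA called 2 with edgeR, 540 with DESeq2, 5 and 6 with limma at pseudocounts of 1 and 10, 1 in the fit of these groups alone and, with CGG_siTRA library a or c left out, 599 or 8. CGG_siTRA vs CGG called 1522, or 2336 with the authors' factors (297 higher), 2374 and 2376 with limma, and 944 without CGG_siTRA library b. Without CGG library a or c it called 1012 or 1007. TRA_OE vs CGG called 1262, or 2363 for these groups alone, 472 with the highest bin and 622 to 809 without a library. CGG vs CTL called 3622, or 6275 alone, and TRA_OE vs siTRA 4724, or 2950 alone. The interaction called 2897, or 1825 with the highest bin. Depth limits CXCL1, the short bins and the inner bins with few reads.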
